A study of Mus musculus with 10 samples.

Results

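The protocadherin gamma cluster is a run of 22 cell-adhesion genes on mouse chromosome 18. It was taken here as every CpG cytosine of the deposited count table that starts between 37650000 and 37850000 (mm10), which gave 1192 of the 2391795 cytosines in the table. Genomic DNA of 10 whole mouse embryos of embryonic day 7.5, of which 5 were labelled control and 5 arsenic, was measured by reduced representation bisulfite sequencing. In this assay CpG-rich fragments are sequenced after bisulfite treatment, and the methylation level of a cytosine is the share of its reads that kept a C. The strain, the sex and the dose and timing of arsenic were not stated in any source used here. The name of the deposited count table carries a mark that reads as a later filial generation of the embryos. The sample labels give an experiment number above 1 that all 10 samples share. Neither mark was explained, so the arsenic label need not mean that the embryo itself was exposed. The table numbers its libraries only from 1 to 10, and no number could be tied to a control or an arsenic embryo, so no comparison between those groups was made. All values describe 10 numbered libraries in which the groups are mixed, and a library's number is that of the table, not of a labelled embryo.

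Each gamma gene has its own first exon, the variable exon, which encodes the extracellular and transmembrane parts of an adhesion receptor and has its own promoter. It is spliced to constant exons that all genes of the cluster share, and these encode a common cytoplasmic end. Neurons express a few A and B type genes each, in changing combinations, whereas the c-type genes Pcdhgc3, Pcdhgc4 and Pcdhgc5 are expressed more evenly across cells. DNA methylation of the variable exons, laid down in the early embryo with the methyltransferase Dnmt3b, is tied to this choice, and CTCF and cohesin bring chosen promoters to distant enhancers. At gastrulation no neurons have formed yet.

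The RefSeq genes of GRCm38.p6, the assembly behind mm10, comprised 12 A type genes (Pcdhga1 to Pcdhga12), 7 B type genes (Pcdhgb1, Pcdhgb2 and Pcdhgb4 to Pcdhgb8) and the 3 c-type genes. Their starts ran from 37661775 (Pcdhga1) to 37819546 (Pcdhgc5), and 21 of the 22 genes ended within 10 bp of 37841873, as genes that share their last exons do. Pcdhgb8, which ended at 37840489, is annotated there as a transcribed pseudogene. Exon bounds were not used here, so a gene's variable exon was taken as the 2500 bp from the gene start, called its window below. The A and B type windows held 840 of the 1192 cytosines and the c-type windows 197. The remaining 155 lay within 500 bp upstream of a start, between or after the windows, or outside the cluster's genes. All 22 windows were measured, with 8 (Pcdhgb5) to 116 (Pcdhgc3) cytosines each. Coverage summed over the 1192 cytosines was 50872 to 68349 reads per library, and the median cytosine had 33 to 49 reads. A read covering several CpGs is counted once at each of them.

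The cluster was less methylated than the assayed genome. Its 1192 cytosines had a mean pooled level of 22.3% (lowest library 20.97%, median 22.5%, highest 23.0%), against 41.6% for all autosomal cytosines (40.3% to 42.8%) and 43.5% for chromosome 18. The ranges did not overlap. Of the cytosines, 636 were under 20% methylated (53.4%, against 33.4% of autosomal cytosines), 553 were between 20 and 80%, and only 3 exceeded 80% (0.252%, against 10.003%). All 3 lay near the shared end of the genes, and no cytosine of any gene window exceeded 80%. The gene windows, which begin at gene starts, held 1037 of the 1192 cytosines. The autosomal cytosines were not matched to them on distance from a gene start or on CpG density. Library 2 was the highest and library 9 the lowest for the cluster. Over all autosomes library 2 was also the highest, and library 9 ranked ninth.

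**Figure D1:**
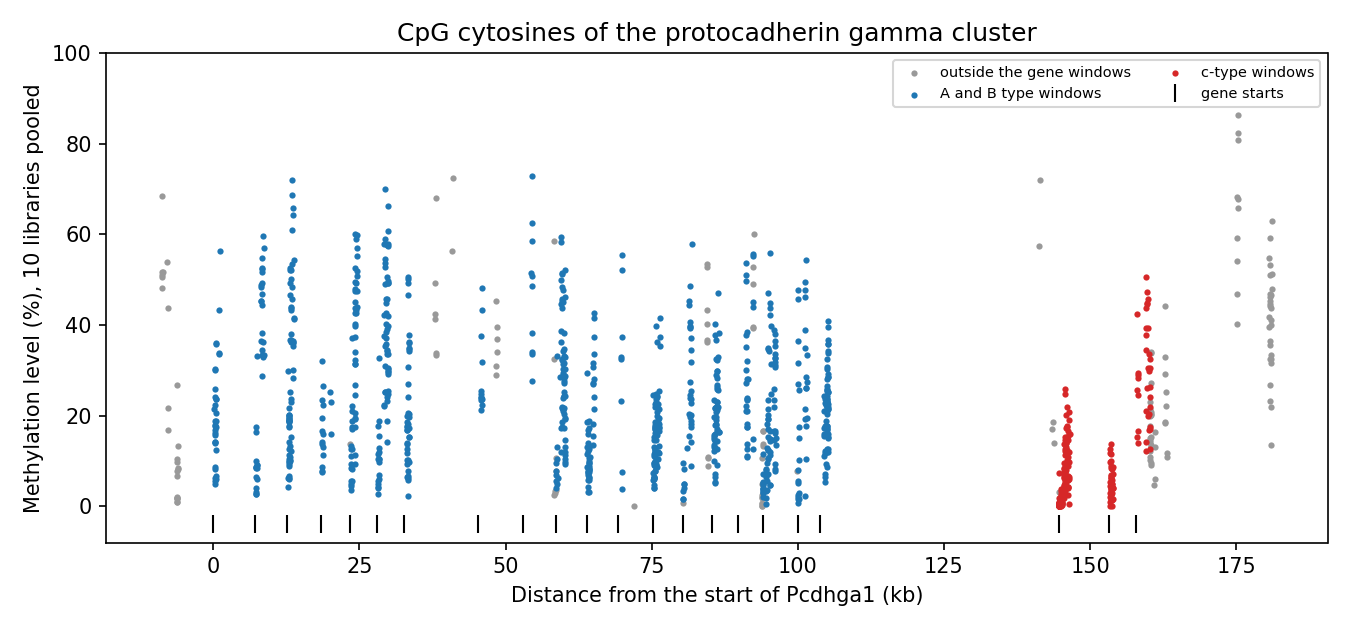
Pooled methylation level (%) of each of the 1192 CpG cytosines against the distance from the start of Pcdhga1 (kb); blue points lie in A and B type windows, red points in c-type windows, grey points elsewhere, and black ticks mark gene starts. The A and B type windows spread from near 0 to 72.9%, while the windows of Pcdhgc3 and Pcdhgc4, near 150 kb, stay under 26%.

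The A and B type windows were intermediately methylated and the windows of Pcdhgc3 and Pcdhgc4 were nearly unmethylated. The A and B type windows together averaged 23.9% over 840 cytosines (21.9% to 25.2% over the libraries, median 24.2%). The 3 c-type windows together averaged 10.2% over 197 cytosines (8.49% to 11.5%, median 10.3%). Their level was lower than that of the A and B types in 10 of 10 libraries, by 12.1 to 15.9 percentage points. This class mean joins unlike members, because Pcdhgc3 and Pcdhgc4 together averaged 5.95% over 160 cytosines (4.64% to 7.10%) and Pcdhgc5 averaged 28.7% over 37 cytosines.

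Pcdhgc3, the first c-type gene (start 37806410), had levels of 6.4%, 5.3%, 7.2%, 7.1%, 4.5%, 6.4%, 6.0%, 6.9%, 5.9% and 6.5% in libraries 1 to 10, with a pooled level of 6.22% over 116 cytosines (2.27% within 1000 bp of the start). Pcdhgc4 (start 37815079), which is needed for the survival of neurons, was at 5.0%, 5.9%, 6.8%, 5.6%, 5.0%, 5.0%, 3.6%, 6.1%, 3.9% and 5.8%, pooled 5.24% over 44 cytosines. The 2 genes overlapped across libraries. The highest value of either gene in any library, 7.21%, was below the lowest of any A or B type window, 11.9%. Pcdhgc4 was, however, read only from 82 to 564 bp after its start, and most A and B type windows were read further on too. In the first 500 bp alone Pcdhgc4 was at 5.25%, above Pcdhgb6 (4.75%) and Pcdhga11 (4.80%). The other A and B type windows read in that stretch were higher than Pcdhgc4, and Pcdhgc3 was at 1.04%. The summed counts were 61909 reads for Pcdhgc3, of which 7.10% were methylated (95% Wilson interval 6.90% to 7.30%), and 18419 for Pcdhgc4, 5.39% (5.07% to 5.73%). These intervals cover counting error only, and are too narrow even for that since PCR copies cannot be told from molecules and neighbouring CpGs share reads.

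Over its whole window Pcdhgc5, the last gene of the cluster, lay within the span of the A and B types. Its levels were 28.5%, 27.0%, 26.5%, 32.4%, 25.1%, 30.3%, 30.02%, 26.3%, 28.8% and 29.0% in libraries 1 to 10. Each of these exceeded both other c-type windows in the same library. Of the 19 A and B type windows, 9 were below Pcdhgc5 in every library, 1 was above it in every library, and the other 9 crossed it. Its summed count was 17715 reads. In the Pcdhgc5 window 9 cytosines lay 250 to 500 bp from the gene start, and the other 28 lay at least 1750 bp from it, so the window was read at other distances than those of Pcdhgc3 and Pcdhgc4. In the bin from 250 to 500 bp, which all 3 c-type genes share, Pcdhgc5 was at 25.0% (18.5% to 28.5% over the libraries), Pcdhgc3 and Pcdhgc4 together at 3.24% (1.82% to 4.11%) and the A and B types at 14.8% (12.7% to 16.6%). These ranges did not overlap.

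The A type windows ran from 15.3% (Pcdhga8) to 47.8% (Pcdhga7), with a median of 21.5% over the 12 genes. In cluster order the levels were 20.7% for Pcdhga1, 29.3% for Pcdhga2, 29.4% for Pcdhga3, 30.3% for Pcdhga4 and 21.3% for Pcdhga5. Further on they were 29.1% for Pcdhga6, 47.8% for Pcdhga7, 15.3% for Pcdhga8, 15.8% for Pcdhga9, 21.1% for Pcdhga10, 18.02% for Pcdhga11 and 21.6% for Pcdhga12. Most A type windows thus lay between 15 and 31%, with Pcdhga7 apart. The B type windows ran from 17.5% (Pcdhgb1) to 32.4% (Pcdhgb2), with a median of 27.2% over 7 genes. The others were Pcdhgb4 at 27.2%, Pcdhgb5 at 30.6%, Pcdhgb6 at 23.2%, Pcdhgb7 at 29.2% and Pcdhgb8 at 22.6%. The pseudogene Pcdhgb8 lay within the span of the protein-coding B types. The order of the windows depended on the length read. Within 1000 bp of the start, Pcdhgb2 was at 10.9%, Pcdhgb6 at 5.66%, Pcdhga2 at 18.1% and Pcdhga11 at 11.5%, each over 1.5 times below its value above, while Pcdhgb1 was at 16.6% and Pcdhgb5 at 30.6%. Pcdhgb6 was then the lowest of the A and B types, and Pcdhga7 and Pcdhgb7 had no cytosine in that stretch.

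The highest window, Pcdhga7 (start 37714834), was at 40.4%, 49.1%, 48.8%, 48.0%, 54.1%, 43.9%, 52.1%, 49.0%, 50.9% and 45.2% in libraries 1 to 10. All 10 were above every library's value of every other gamma window, the nearest being library 10 of Pcdhgb5 at 40.1%. Its level rests on 10 cytosines, all between 1347 and 1499 bp from the gene start, with a median coverage of 83.5 reads. The lowest A or B type window, Pcdhga8 (start 37725706), was at 13.4%, 16.5%, 11.9%, 22.2%, 16.6%, 14.4%, 14.4%, 15.8%, 15.8% and 13.6% over 51 cytosines, and library 4 stood apart from the others. Pcdhgb5 (start 37730971) had the widest range, with 30.2%, 28.3%, 28.9%, 34.1%, 35.4%, 21.95%, 30.4%, 28.1%, 26.6% and 40.1% over only 8 cytosines. Pcdhga12 followed with a range of 15.7 points, from 12.9% in library 9 to 28.6% in library 1, over 67 cytosines of low coverage (median 25 reads). The median range of the 19 windows was 7.89 points, and the narrowest, that of Pcdhga11, was 4.05 points.

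**Figure D2:**
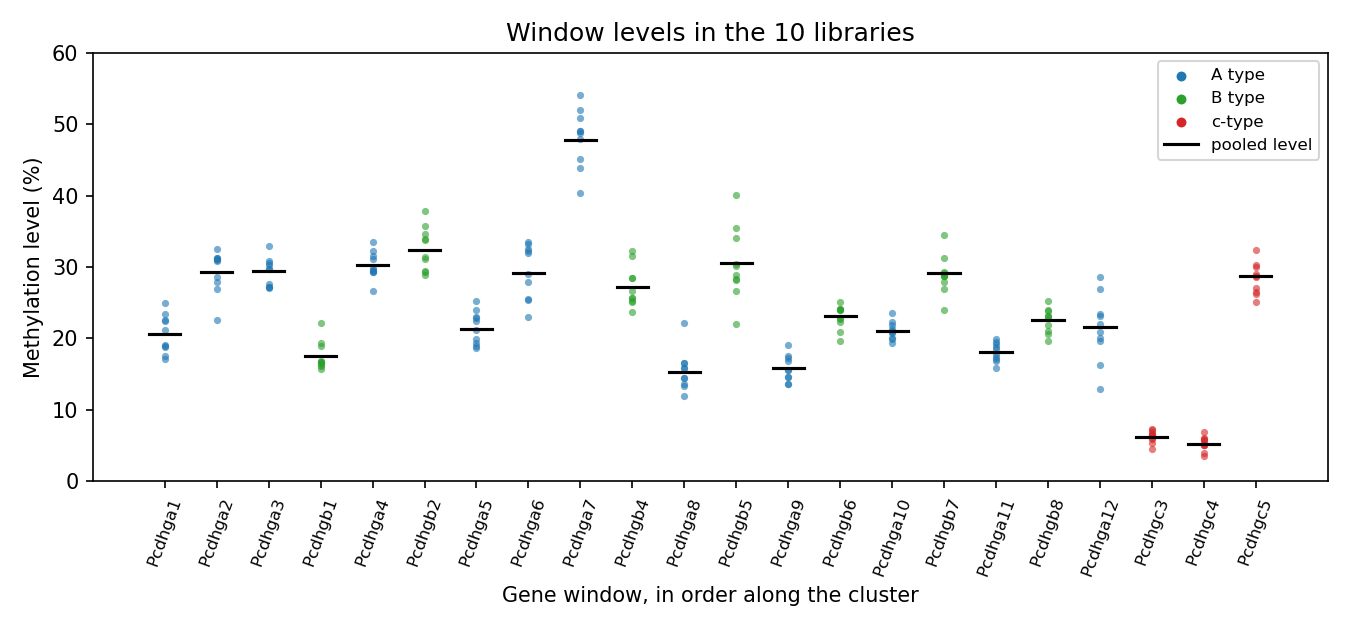
Methylation level (%) of each gene window in the 10 libraries (points) with the pooled level (black bar), in order along the cluster; blue is A type, green B type and red c-type. Pcdhga7 is the highest at 47.8%, Pcdhgc3 and Pcdhgc4 are the lowest at 6.22% and 5.24%, and Pcdhgc5 lies among the A and B types at 28.7%.

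B type cytosines averaged 27.1% and A type cytosines 22.4%, and the difference (A minus B) was -7.53 to -3.34 points, the B type being higher in 10 of 10 libraries. The mean over the cytosines within 1000 bp of the gene start had the other sign, with A minus B at 1.20 points. Of the 4 bins of 250 bp in that stretch, however, the B type was higher in 3, at 12.5% against 9.60% in the first, 29.6% against 19.1% in the third and 37.7% against 29.0% in the fourth. From 250 to 499 bp the B type was at 14.1%, on 5 cytosines, and the A type at 14.8%, on 129. The B type was thinly read in the next bins too. It had 7 cytosines of 1 gene from 500 to 749 bp and 13 of 3 genes from 750 to 999 bp, against 84 and 115 of the A type. The cytosines of the types lay at different distances: 71 of the A type and 63 of the B type were in the first bin, but 328 and 25 in the other 3.

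Within the variable exons, methylation rose with distance from the gene start. In the A and B types, cytosines in the 250 bp upstream of the start averaged 6.21% (4.40% to 8.81% over the libraries, 22 cytosines of 5 genes). The first 250 bp of the windows averaged 10.9% (10.2% to 11.9%, 134 cytosines of 11 genes), and the next bins 14.8%, 19.9% and 29.8%. From 1000 to 1249 bp the level was 32.0% (29.1% to 35.5%, 138 cytosines of 14 genes), and it was 30.9% and 27.1% in the bins that followed. Beyond 1750 bp only 44 cytosines of few genes were read, at 24.4% to 37.9%. The first 500 bp as a whole were at 12.9% over 268 cytosines (11.7% to 14.1%) and the remainder of the window at 29.1% over 572 (26.0% to 31.3%), lower at the front in 10 of 10 libraries.

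The gradient was present in single genes. Of the 19 A and B type windows, 14 had at least 3 cytosines in both parts. In all 14 the pooled level was lower in the first 500 bp, and in 11 it was lower in every library. Pcdhga2 went from 9.67% in front to 44.3% further on, Pcdhgb2 from 10.9% to 40.1%, Pcdhga4 from 12.9% to 39.5%, and Pcdhga11 from 4.80% to 20.7%. The exceptions to the call in every library were Pcdhgb1 (16.6% and 21.4%, with 3 cytosines further on; lower in 8 of 10 libraries), Pcdhga6 (25.8% and 33.9%; 9 of 10) and Pcdhga10 (15.4% and 22.2%; 9 of 10). Pcdhgc3 had the same direction at a lower level, 1.04% in front and 9.63% further on. Pcdhgc4 was at 5.25% and 5.14%, with 5 cytosines further on, lower at the front in 3 of 10 libraries.

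**Figure D3:**
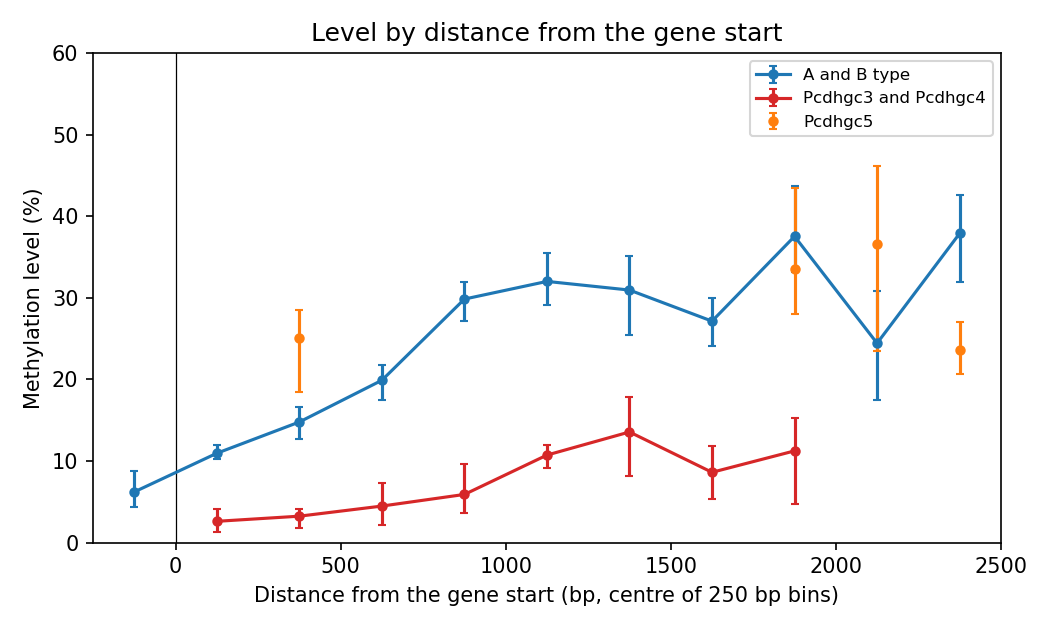
Methylation level (%) in 250 bp bins by distance from the gene start (bp) for the A and B types (blue), Pcdhgc3 with Pcdhgc4 (red) and Pcdhgc5 (orange); points are pooled levels, bars the lowest and highest library, and bins under 3 cytosines are left out. The blue curve goes from 6.21% upstream of the start to 32.0% at 1000 to 1249 bp, and the red curve stays below it in each of the 8 bins they share. From 750 bp on the red curve rests on Pcdhgc3 alone.

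Each exon was read at its own set of distances from the start. Differences were therefore also taken within 250 bp bins of distance and averaged over bins, a comparison added after the data were seen. The A and B types exceeded Pcdhgc3 and Pcdhgc4 by 17.8 points over 8 shared bins (15.7 to 21.3 over the libraries), with the same direction in all 8 bins and 10 of 10 libraries. Pcdhgc4 had cytosines only up to 564 bp, so from 750 bp on the difference is from Pcdhgc3 alone. In the bins that held both genes the levels were 10.9% against 2.61%, 14.8% against 3.24% and 19.9% against 4.48%. Against Pcdhgc5 the matched difference was -1.05 points over 4 shared bins (-5.16 to 3.81), and its sign differed between libraries and between bins. In the shared bins from 1750 bp on, the A and B types had cytosines of 2 genes or fewer. The shared bin from 250 to 499 bp held 134 A and B type cytosines of 11 genes, and there Pcdhgc5 was higher (25.0% against 14.8%). The mean over the 4 bins therefore gives no direction. The matched difference of A and B types from all 3 c-type genes was 12.8 points. The matched difference of A from B type was -6.16 points, negative in 10 of 10 libraries (-9.15 to -1.95) and in 5 of 7 bins. Bins count equally in this mean although some rest on single genes. From 1750 to 1999 bp, 5 A type cytosines of 1 gene (23.1%) stood against 16 B type cytosines of 1 gene (42.0%). From 500 to 749 bp the B type had 7 cytosines of 1 gene.

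With distance matched in this way, most windows near the start of the cluster were above the other A and B type windows, and most of those further on were below. Each window was set against the cytosines of the other 18 windows in the same bins. Cytosines in bins that no other window reached were left out, so Pcdhga11 kept 60 of 77 and Pcdhgb7 24 of 30. Of the 9 windows nearest the start of the cluster, 8 were above the others (all but Pcdhga5 at -3.86 points), and of the 10 that followed, 2 were (Pcdhgb5 at 10.2 and Pcdhgb8 at 2.39 points). Pcdhga7 was 18.3 points above (10 cytosines), Pcdhga6 12.9 (12 cytosines), Pcdhgb2 10.03 (68 cytosines) and Pcdhga3 9.19 points (66 cytosines). The value of Pcdhgb5 rests on 8 cytosines. Every window counts once here, whatever its number of cytosines. At the other end the differences were -10.4 points for Pcdhga11 and -10.4 points for Pcdhga12, with that sign in 10 of 10 libraries each. In all, 7 windows were above in every library and 6 below in every library. Spearman's rho between cluster order and this difference was -0.63 over 19 windows, and -0.24 between order and the plain window level. The split of the windows by place was chosen after their values were seen, the windows share the same libraries, and no test was made of it.

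**Figure D4:**
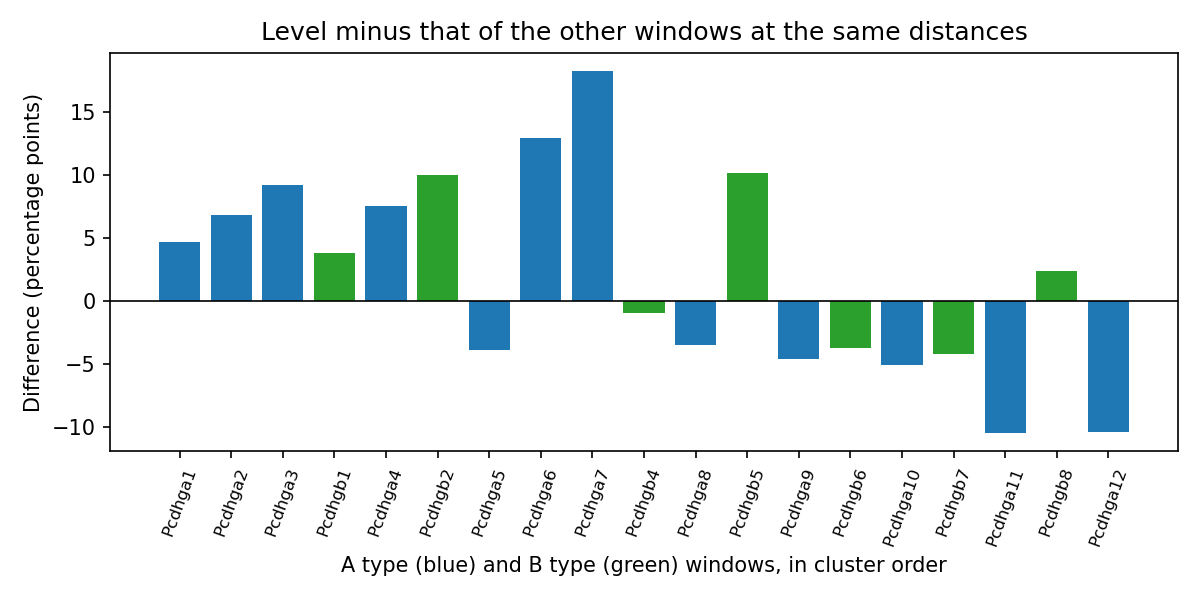
Level of each A type (blue) and B type (green) window minus the level of the other 18 windows at the same distances from the gene start (percentage points), in order along the cluster. Positive bars prevail from Pcdhga1 to Pcdhga7, which is at 18.3 points, and negative bars from Pcdhgb4 to Pcdhga12.

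Outside the windows the cluster was heterogeneous. Ahead of Pcdhga1, 24 cytosines from 37652983 to 37655668 averaged 23.2% (20.6% to 28.0%), and 14 of them were under 20%. The 25 cytosines within 500 bp upstream of gene starts averaged 9.23% (7.01% to 12.5%). Of these, 13 belonged to Pcdhga11 (6.41%) and 8 to Pcdhgb4 (15.2%). The 34 cytosines between windows averaged 39.0% (32.9% to 42.5%), and the 34 behind the Pcdhgc5 window, from 37822056 to 37824863, averaged 18.6% (13.1% to 23.3%). The shared constant exons lie between the last variable exon and the gene ends. In the last 10000 bp before the shared end only 10 cytosines were read, all between 37836864 and 37837110, and they averaged 65.2% (56.7% to 77.2%). Whether they fall in a constant exon was not analysed here. Subtracting these cytosines from the A and B type windows gave -53.0 to -33.3 points, negative in 10 of 10 libraries, although their median coverage of 16 reads was low. Beyond the shared end, the 28 cytosines from 37842432 to 37842894 were at 41.0% (35.2% to 47.7%). They lie before the lower coordinate of the neighbouring gene Diaph1, whose strand was not used here.

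The other genes annotated in the stretch added little. The 9 cytosines within 1000 bp of the pseudogene Gm8242 averaged 46.0%, and the 15 within 1000 bp of Diaph1, a formin gene, averaged 39.5%. No cytosine was read within 1000 bp of the pseudogene Gm24401 or the noncoding RNA gene Gm29994. The predicted genes Gm37013, Gm38666 and Gm38667 start in the alpha cluster and end at the shared gamma end, so they span 1164 of the 1192 cytosines and have no level of their own here.

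The alpha and beta protocadherin clusters lie on the same chromosome before the gamma cluster and were read through the same windows. Alpha genes also share constant exons, while each beta gene is a single exon. The windows of Pcdha1 to Pcdha12 averaged 19.3% over 363 cytosines (16.8% to 21.3%), of which 9 of 12 genes were measured, with a median of 20.9% from Pcdha12 at 10.8% to Pcdha2 at 26.6%. The gamma A and B windows were above them by 4.65 points, in 10 of 10 libraries (3.91 to 6.51). Matched on distance, the difference was 1.18 points, with 8 of 10 libraries in that direction and 4 of 7 bins. The alpha c-type windows, Pcdhac1 at 27.9% and Pcdhac2 at 20.03%, were in the span of the gamma A and B types and not near Pcdhgc3 and Pcdhgc4. That comparison is of whole windows and was not matched on distance. The beta windows averaged 37.7% over 215 cytosines (34.9% to 39.5%), of which 15 of 22 genes were measured, with a median of 37.9%. The difference of the gamma A and B windows from them was -13.8 points, negative in 10 of 10 libraries (-16.3 to -10.7), and -9.92 points when matched on distance, where 7 of 9 bins and 10 of 10 libraries had that direction. These are pooled values with ranges over libraries, and no test was made, since the libraries mix groups and genes are not replicates.

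**Figure D5:**
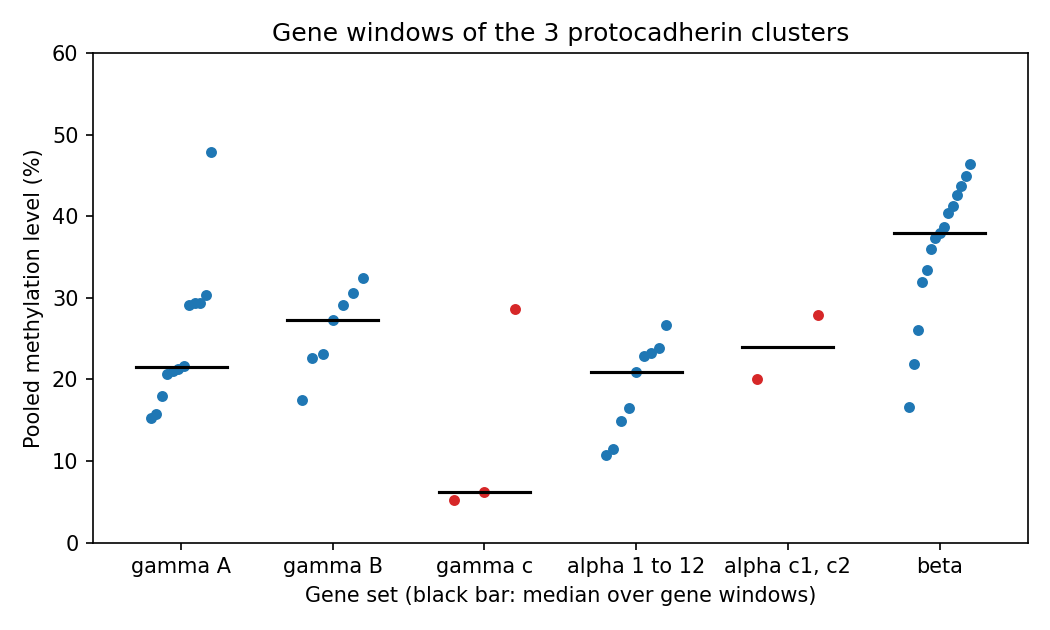
Pooled methylation level (%) of each measured gene window in the gamma, alpha and beta clusters (points; red marks c-type genes) with the median of each set (black bar). The gamma A and B types overlap alpha, most beta windows lie above 30%, and Pcdhgc3 and Pcdhgc4 lie below every other window.

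At the measured end, 7 of 10 regulators of the clusters and 5 of 9 protocadherin genes that stand alone were under 10% methylated. Each was read within 1000 bp of the gene end with more cytosines, which can be the 5' or the 3' end. The share of all genes under 10% at such an end was not set beside these counts, so they do not set the listed genes apart. Among 16 regulators of clustered protocadherins, 10 were measured, with a median of 4.13%. Ctcf, the insulator protein, was at 0.905%, Smchd1, a repressor of the clusters, at 0.956%, and Dnmt3b at 1.38%, while Dnmt3l was at 44.1%, the cohesin loader Nipbl at 58.6% over 12 cytosines and Wiz at 82.5% over 6. Among 10 protocadherin genes that stand alone, 9 were measured, with a median of 9.97%, from Pcdh1 at 4.18% to Pcdh18 at 55.7%.

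At single cytosines the libraries differed at a share near that of the whole table. Homogeneity of the 10 libraries was tested by chi-square at every autosomal cytosine of 5 to 95% pooled level with p-values adjusted by Benjamini-Hochberg over all 1755343. It called 25.4% of all of these at an adjusted p under 0.05, and 319 of the 1035 tested in the cluster (30.8%), where median coverage was 41 reads against 37. In the A and B type windows 230 of 791 were called (29.1%) and in the c-type windows 36 of 110 (32.7%). With a coverage minimum of 20 reads the shares were 41.8% in the cluster (287 of 687) and 34.7% of all cytosines tested. Coverage was not matched between the cluster and the table. The test takes reads as independent. With the counts halved, as if each fragment were read in both mates, it called 0.0867% of all cytosines and 2 of 1035 in the cluster (0.193%). Whether halving corrects too much was not tested. Neither number is a difference between control and arsenic embryos.

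The 2 cytosines called under halved counts were in A type exons. One lay 128 bp into Pcdhga8 (37725834, plus strand), where the pooled level was 8.70%, library 4 was at 58.3% and library 2 at 0%, with an adjusted p by the chi-square test of 2.93e-11 and of 0.0057 with counts halved. Coverage there was 24 to 65 reads. The other lay 707 bp into Pcdhga12 (37766287, plus strand), pooled 15.6%, with library 6 at 60% and library 3 at 0%, an adjusted p by that test of 8.5e-09 and of 0.0498 with counts halved, and coverage of 20 to 51 reads. Some, but not all, nearby cytosines were also high in the same library. In the first 500 bp of Pcdhga8, library 4 was at 18.7% and the other libraries at 6.90% to 13.4%, and it was above all others at 13 of 37 cytosines. It was at 0% at the plus-strand cytosines 102 and 116 bp into the gene, which had the same coverage of 24 reads as the called one. At the 10 cytosines of Pcdhga12 between 500 and 800 bp, library 6 was at 38.2% and the others at 7.56% to 21.96%, and it was above all others at 6 of the 10. In the rest of the Pcdhga12 window library 6 was at 20.8%, inside the span of the others (13.5% to 29.8%). Cytosines this close share reads, so these are not separate signals. The levels and counts of both stretches include the called cytosine, and library and stretch were picked from that call. They are therefore no further support for the call, and no such count for a library picked otherwise was set beside them.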

How the data were processed

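The authors deposited 1 table of read counts per CpG cytosine: per the file headers it gives coverage, methylated and unmethylated counts of 10 numbered libraries, with methylKit's column names. Its values are not normalized. Per the submitters' processing notes the build was mm10 and the tools included Bismark, Trim Galore and methylKit; versions, settings and deduplication were not given in the sources used here. It was checked that the counts sum to the coverage and that every cytosine has at least 10 reads in every library, so thinly read ones are missing. The 30 columns matched no sample label, so the planned control against arsenic test was not run.

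The level of a set is the average of its cytosines' shares of methylated reads. For a pooled level the counts of the 10 libraries are summed per cytosine first. Cytosines of both strands are kept apart. Gene starts and ends come from RefSeq (GRCm38.p6; 22 of 22 genes matched by symbol), without strand or exons. The gamma genes were taken as starting at their unshared end and the other clusters as having the same direction. The planned constant exons were replaced, after positions were seen, by the last 10000 bp before the shared end. All 22 genes are named, by rule; the highest, the lowest and the widest A or B type window and the c-type windows are given in every library. Members, windows and lists were chosen with earlier results of these data known. The chi-square test (scipy 1.17.1, 9 degrees of freedom) was tried on 20000 simulated cytosines for the comparison between libraries. It found 40 of 100 cytosines with a 20-point shift in 5 libraries and 99 of 100 with a 40-point shift. It made 7 false calls among 19800 simulated cytosines without a shift. That rate cannot be carried over to the deposited counts, whose reads may not be independent. Alternatives were a coverage minimum of 20, read weighting, merged strands, medians, 1000 bp windows, distance matching and leaving out each library.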

Additional observations from a re-analysis of the deposited data

Results flagged for a closer look

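Of 26 sets of 10 library values (the 22 gene windows and 4 groups of cytosines), 1 had a library far from the rest. In the Pcdhga8 window library 4 was at 22.2%, the next library at 16.6% and the lowest at 11.9%, so its gap to the next was 0.547 of the whole range, above the limit of 0.466 for 10 samples. Chance flags about 1 in 20 such sets, and the 10 libraries mix control and arsenic embryos. Without library 4 the pooled level of the Pcdhga8 window was 14.7%, against 15.3% with it.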

How the results depend on the processing

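No paired analysis was possible because the table's library numbers match no labelled embryo. A shift is named here when it exceeded 1 SD of the 10 libraries. Merging strands and leaving out any single library moved no level or difference beyond that. Leaving out 1 library gave 272 to 291 calls of differing cytosines in the cluster, against 319. With read weighting the cluster level was 23.1%. With medians over cytosines it was 18.5%, the A and B type level 20.9%, the c-type level 6.25%, the A minus B difference -6.51 points and gamma minus beta -16.9 points. With a coverage minimum of 20 the A minus B difference was -2.29 points, gamma minus alpha 3.36 and gamma minus beta -17.1. With 1000 bp windows the A and B type level was 18.6% and the c-type level 5.16%. The differences were then 2.20 points for gamma minus alpha, -18.5 for gamma minus beta and -12.8 for front minus back, and A minus B reversed to 1.20 points; cytosines beyond 1000 bp are left out by construction. Matched on distance, which was added after seeing the data, A minus B was -6.16, gamma minus alpha 1.18 and gamma minus beta -9.92 points. Halving the counts left 2 of the 319 calls in the cluster. Among single windows, the 1000 bp setting moved 12 of 20 with a value and merging strands 0 of 22. Pcdhgb6 moved under 4 settings, to 5.66% at the lowest and 28.8% at the highest, and Pcdhgb2 fell to 10.9% with 1000 bp windows. Of the groups of cytosines in the cluster, the 10 near the shared end had the lowest median coverage, 16 reads.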

Other observations

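In the 1037 cytosines of the gene windows, 12 had no methylated read in any of the 10 libraries, 10 of them in Pcdhgc3 and 2 in Pcdhgc4. Their coverage summed over the libraries was 206 to 582 reads, which allows levels of up to 0.515% to 1.46% (3 counts of the total, for counting error only). At the other end, 11 cytosines exceeded 60%, of which 5 lay in Pcdhga3, 3 in Pcdhgb2 and 2 in Pcdhga7. The highest, 1499 bp into Pcdhga7 (37716333, minus strand), was at 72.9% (64.5% to 85.4% over the libraries). Pcdhga3 thus held some of the highest cytosines in a window that averaged 29.4%: 929 bp from its start the level was 72.1% (57.5% to 83.6%), while its first 500 bp averaged 14.7%.

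At 440 CpGs of the cluster both strands were read. The levels of the strands differed by a median of 2.43 points and by at most 10 points at 424 of them (96.4%), against 93.6% at 745717 autosomal CpGs. Pearson's r between the strands was 0.945 across these CpGs, which are neighbours and not independent. The largest difference between the strands of 1 CpG was 47.1 points.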
